A study of Mus musculus with 6 samples.

Results

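Genomic imprinting marks a small set of mammalian genes so that only the copy inherited from the mother or only that from the father is transcribed. The mark is DNA methylation set in the germline at control regions, and imprinted genes lie in clusters in which a long noncoding RNA often silences its neighbours on the same chromosome. Many of these genes act on fetal growth, and several are abundant in fetal muscle and in cultured myoblasts. The 33 imprinted genes described here were chosen by name and assigned to their clusters; all 33 were found among the 55804 genes of the count table.

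RNA-seq counts came from C2C12, a mouse myoblast line that fuses into myotubes in low serum. The Prr33-gRNA group carried a CRISPR/Cas9 guide against Prr33 and is labelled as a knockdown, and the Ctrl-gRNA group carried a control guide and is labelled as wild type; both were collected after 3 days in differentiation medium, with 3 libraries in each group. The series was made to ask what Prr33 does in myoblast differentiation. The design text speaks of 1 knockdown line, so the guide and other differences of that line cannot be told apart. The labels do not say whether the numbers 1 to 3 stand for cultures, clones or guides, so the p-values cover only how far these libraries spread, which may be technical. Counts were not separated by parental allele, and the parental copy named below is background from mouse tissues. In such bulk RNA, fewer cells of a type and less RNA per cell cannot be told apart.

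Total counts were 17412383 to 19471762 in the Prr33-gRNA libraries and 17006381 to 19118010 in the Ctrl-gRNA libraries. Prr33 itself had 793, 829 and 848 counts in Prr33-gRNA, against 1137, 990 and 913 counts in Ctrl-gRNA (log2 fold change -0.42, SE 0.06, edgeR adjusted p = 1.37e-06). The labelled cell type was checked with 10 skeletal muscle genes, all of them detected; 8 fell and 2 rose, and their summed level was 15233 to 16127 CPM (counts scaled to a common library size) in Prr33-gRNA and 26858 to 27356 CPM in Ctrl-gRNA. Of 10 proliferation genes 9 rose and 0 fell, with sums of 1265 to 1312 CPM in Prr33-gRNA and 1011 to 1077 CPM in Ctrl-gRNA. Of 10 fibroblast and mesenchymal progenitor markers 6 were tested and fell, with sums of 844 to 908 CPM in Prr33-gRNA and 1808 to 1941 CPM in Ctrl-gRNA. Col3a1 and Ly6a held most of the Ctrl-gRNA sum (averages of 1117 and 464 CPM), and Col3a1 most of the Prr33-gRNA sum (797 CPM). Thy1 and Dpt each had 1 count over the Prr33-gRNA libraries and 3 over the Ctrl-gRNA libraries. Lum and Tcf21 were at 0 in every library. Of 6 endothelial and blood markers Ptprc and Adgre1 were at 0, and the sums were 0.851 to 1.83 CPM in Prr33-gRNA and 1.91 to 3.09 CPM in Ctrl-gRNA. Among all tested genes 25.5% rose and 26.6% fell. Most of the muscle sum came from Myh3 and Acta1. They averaged 5282 and 7359 CPM in Prr33-gRNA and 12684 and 9885 CPM in Ctrl-gRNA. The part of these marker shifts in the results below was not tested.

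Of the 33 imprinted genes, 19 had enough reads to be tested, and they moved in both directions. In Prr33-gRNA 5 rose (Mest, Snhg14, Impact, Snrpn and Peg10) and 9 fell (Igf2os, Gnas, H19, Airn, Cd81, Usp29, Kcnq1ot1, Peg3 and Igf2r), while Tssc4, Zim1, Zrsr1, Grb10 and Nnat did not pass the test (edgeR quasi-likelihood test, Benjamini-Hochberg adjusted p below 0.05 over 14651 tested genes). With scaling by library size only, 5 of them rose and 6 fell. Among all tested genes 52.1% passed, 25.5% as higher and 26.6% as lower (4999 higher and 3103 lower with library size only), so a shift of a single imprinted gene past the threshold was not unusual in this comparison. The median log2 fold change, Prr33-gRNA over Ctrl-gRNA, was -0.22 over the 19 imprinted genes and -0.002 over all tested genes. The CPM of the groups did not overlap for 14 of the 19, where 57.9% of all tested genes had no overlap. Most changes were small: only Mest and Igf2os changed by a log2 fold change of at least 1, where 10.9% of all tested genes did so.

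**Figure D1:**
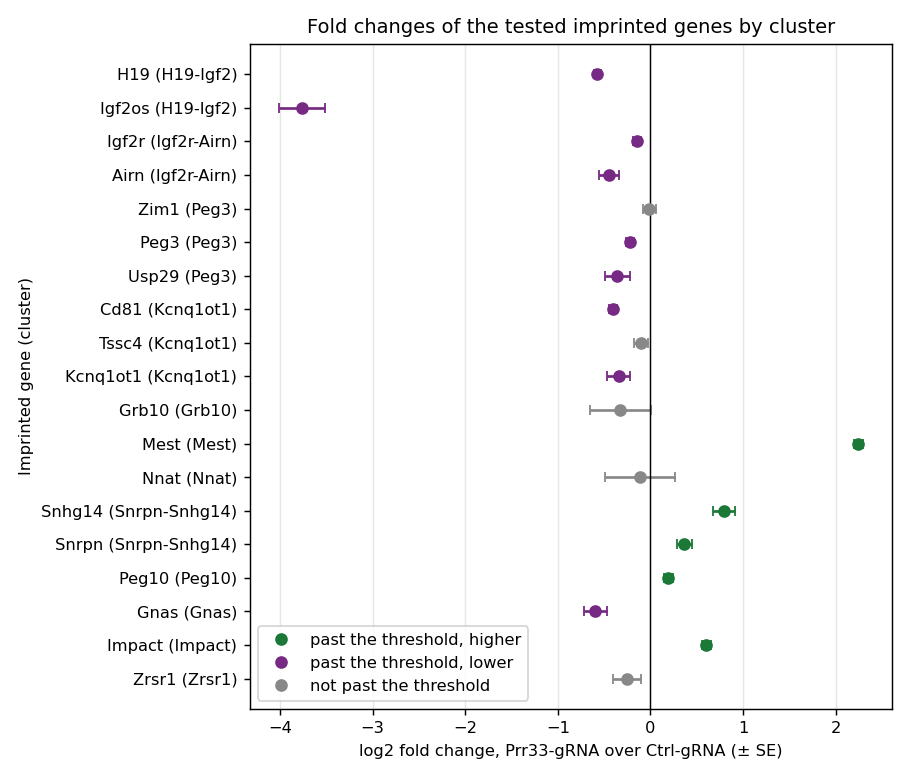
Log2 fold change (Prr33-gRNA over Ctrl-gRNA, horizontal axis) of each of the 19 tested imprinted genes, ordered by cluster, with bars of 1 SE; green points passed the edgeR test as higher, purple points as lower and grey points did not pass. Mest at 2.25 and Igf2os at -3.76 stand apart from the other 17, which lie between -0.59 and 0.79.

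The imprinted genes spanned more than 4 orders of magnitude in level. On the deposited FPKM scale, which divides reads by gene length, H19 averaged 3048 ± 71.1 FPKM in Prr33-gRNA and 4511 ± 155 FPKM in Ctrl-gRNA (SD, n = 3 each), and it was the third most counted gene of the table. Cd81 followed at 150 ± 7.50 FPKM in Prr33-gRNA and 198 ± 7.26 FPKM in Ctrl-gRNA (SD, n = 3 each). The order of the next genes differed between the groups, since Mest ranked above Peg3 in Prr33-gRNA and below Peg10 in Ctrl-gRNA. At the low end stood Kcnq1ot1, at 0.117 ± 0.0131 FPKM in Prr33-gRNA and 0.148 ± 0.0169 FPKM in Ctrl-gRNA (SD, n = 3 each).

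**Figure D2:**
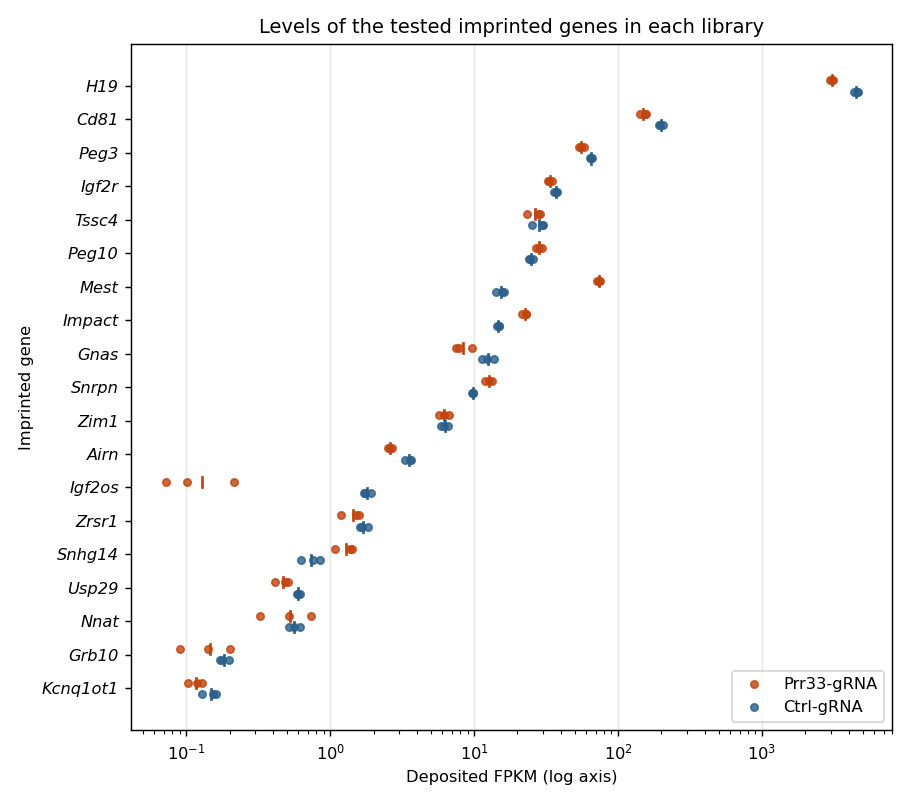
Deposited FPKM (log axis) of the 19 tested imprinted genes in each library, ordered by their mean in Ctrl-gRNA, with Prr33-gRNA in orange above Ctrl-gRNA in blue and a short line at each mean. H19 is far above every other gene, and the groups are widely apart for Mest and Igf2os.

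Mest showed the steepest rise of the imprinted genes. It encodes a protein of the alpha/beta hydrolase fold family and is transcribed from the paternal copy. Mest (ENSMUSG00000051855, plus strand of chromosome 6 at 30723547 to 30748465, mm10) had 5211, 5354 and 5807 counts in the Prr33-gRNA libraries, against 1050, 1066 and 1042 counts in the Ctrl-gRNA libraries. Every Prr33-gRNA library was far above every Ctrl-gRNA library. The level was 290 ± 6.45 CPM in Prr33-gRNA and 61.2 ± 4.01 CPM in Ctrl-gRNA (SD, n = 3 each), a 4.75-fold rise (log2 fold change 2.25, SE 0.05, edgeR adjusted p = 3.73e-28). The gene ranked 119th by size among the 3740 that rose.

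The end of Mest overlaps that of Copg2, a coatomer subunit gene on the other strand, and 912 of the 3945 exonic bases of Mest in GENCODE M21 lie in Copg2 exons. The strand setting of the counting is not known here, so reads in the overlap cannot be assigned to either gene with certainty. Copg2 had 99.6 ± 4.03 CPM in Prr33-gRNA and 73.5 ± 4.40 CPM in Ctrl-gRNA (SD, n = 3 each; log2 fold change 0.44, SE 0.06, edgeR adjusted p = 3.46e-08). Within a library, the log2 ratio of Mest over Copg2 counts was 1.53, 1.61 and 1.48 in Prr33-gRNA, against -0.27, -0.22 and -0.31 in Ctrl-gRNA. The mean ratio differed by 1.81 (exact two-sided permutation p = 0.1, the smallest that 3 against 3 libraries allow; adjusted p = 0.133 over 8 ratios). The neighbour Cep41 on the other side of Mest also rose (log2 fold change 0.42, SE 0.09, edgeR adjusted p = 1.16e-04).

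A RefSeq promoter of Mest is shown because this gene had the steepest rise; of its 3 windows the first with the most CG dinucleotides, the sites of imprint methylation, was taken. It covers 250 bases before to 50 after the start at base 30738050 of the plus strand (chr6:30737800-30738099, GRCm38.p6), and CG is in capitals.
Mest promoter: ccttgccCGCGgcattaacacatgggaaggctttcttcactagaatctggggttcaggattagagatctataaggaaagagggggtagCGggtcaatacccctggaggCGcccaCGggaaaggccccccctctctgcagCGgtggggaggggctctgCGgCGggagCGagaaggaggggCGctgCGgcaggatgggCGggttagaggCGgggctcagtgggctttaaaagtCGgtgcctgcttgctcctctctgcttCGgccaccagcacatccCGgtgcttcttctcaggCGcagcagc
It holds 17 CG dinucleotides, more than 68.6% of all RefSeq promoter windows of this length. The hexamer TGCCGC or its reverse complement GCGGCA, the core that the imprint-protecting factor ZFP57 recognises, occurs at 2 positions in it, and 11.6% of all 32851 windows hold at least 1. Neither the methylation of these bases nor binding to them was measured in these libraries.

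In the Snrpn-Snhg14 cluster of chromosome 7, which is expressed from the paternal copy and corresponds to the human Prader-Willi region, both tested genes rose. Snhg14, the long noncoding host of small nucleolar RNAs whose transcript runs antisense to Ube3a, had 656, 507 and 748 counts in Prr33-gRNA and 304, 327 and 373 counts in Ctrl-gRNA (log2 fold change 0.79, SE 0.11, edgeR adjusted p = 1.14e-05). Snrpn, for the spliceosomal protein SmN, had 528, 497 and 518 counts in Prr33-gRNA and 396, 350 and 354 counts in Ctrl-gRNA (log2 fold change 0.37, SE 0.08, edgeR adjusted p = 4.13e-04). The CPM of the groups overlapped for neither gene. The log2 ratio of Snhg14 over Snrpn averaged 0.29 ± 0.25 in Prr33-gRNA and -0.13 ± 0.23 in Ctrl-gRNA (SD, n = 3 each). The groups overlapped (exact permutation p = 0.2, adjusted p = 0.229 over 8 ratios). The smallest p that 3 against 3 libraries allow is 0.1, so this test could not decide whether the rises differed in size.

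Snrpn shares 589 of its 2159 exonic bases with the readthrough gene Gm38393, 216 with Snurf, which was listed at 0 counts, and 148 with Gm18908 on the other strand. Some of these coincide, and 65.9% of its exonic bases belong to it alone. Gm38393 rose too, with 248, 202 and 286 counts in Prr33-gRNA and 138, 149 and 122 counts in Ctrl-gRNA (log2 fold change 0.72, SE 0.13, edgeR adjusted p = 2.94e-05). Snhg14 shares 1803 of 26093 exonic bases with Ube3a on the other strand, the ubiquitin ligase gene that is maternally expressed in neurons. Ube3a rose by less, at 173 ± 8.97 CPM in Prr33-gRNA and 145 ± 4.93 CPM in Ctrl-gRNA (SD, n = 3 each; log2 fold change 0.25, SE 0.05, edgeR adjusted p = 4.29e-05). The other 2 members of the cluster, Ndn and Magel2, which encode MAGE-family proteins, were almost without reads: Ndn had 1 count over the 6 libraries, and Magel2 had 3 counts in Prr33-gRNA replicate 1 and 1 count in Ctrl-gRNA replicate 1. Nearby Peg12 and Mkrn3 did not pass the test (log2 fold changes of 0.32 and -0.26, edgeR adjusted p = 0.128 and 0.212), and Atp10a, a lipid flippase gene, fell (log2 fold change -0.87, SE 0.07, edgeR adjusted p = 3.10e-12).

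RefSeq gives Snrpn and Snhg14 a start in common, at base 60450177 of the minus strand of chromosome 7, upstream of the spans that the count table gives either gene. Its window is shown since both genes rose (chr7:60450128-60450427, GRCm38.p6, minus strand, CG in capitals).
Snrpn and Snhg14 promoter: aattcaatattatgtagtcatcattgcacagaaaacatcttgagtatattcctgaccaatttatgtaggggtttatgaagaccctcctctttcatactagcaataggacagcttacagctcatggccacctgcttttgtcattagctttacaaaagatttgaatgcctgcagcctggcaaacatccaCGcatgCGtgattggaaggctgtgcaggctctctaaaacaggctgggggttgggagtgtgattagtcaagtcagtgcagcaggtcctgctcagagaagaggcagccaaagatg
This upstream window is poor in CG, with 2, more than 14.1% of all windows, and holds no TGCCGC in either orientation. The Snrpn start at base 60005199, inside the counted span, has a window with 7 CG and 1 TGCCGC or its reverse complement. Counts per gene do not show which of the 4 Snrpn starts in RefSeq was used.

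Impact and Peg10 also rose, both of them transcribed from the paternal copy. Impact, whose protein restrains the amino acid sensing kinase GCN2, had 119, 110 and 118 CPM in Prr33-gRNA and 74.1, 77.3 and 76.8 CPM in Ctrl-gRNA (log2 fold change 0.60, SE 0.05, edgeR adjusted p = 7.34e-12). Peg10, which derives from a retrotransposon and is needed in the placenta, had 188, 181 and 200 CPM in Prr33-gRNA and 164, 163 and 171 CPM in Ctrl-gRNA (log2 fold change 0.19, SE 0.05, edgeR adjusted p = 8.28e-04). Neither gene's groups overlapped, and the rise of Peg10 was the smallest of the 5. Around Peg10 on chromosome 6, Sgce, which shares its imprinted promoter region and encodes epsilon-sarcoglycan, moved the other way with 22.8 ± 0.782 CPM in Prr33-gRNA and 28.7 ± 2.60 CPM in Ctrl-gRNA (SD, n = 3 each; log2 fold change -0.33, SE 0.09, edgeR adjusted p = 0.00146). Pon2 rose (log2 fold change 0.30, edgeR adjusted p = 5.60e-05), Casd1 did not pass (0.15, edgeR adjusted p = 0.0798), and Asb4 had 6 counts over the Prr33-gRNA libraries, 5 of them in replicate 3, and 0 over the Ctrl-gRNA libraries.

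The H19-Igf2 cluster lies next to the targeted gene: in the count table H19 begins 68.8 kb and Igf2 144 kb beyond the end of Prr33. H19 is a maternally expressed long noncoding RNA, host of the microRNA miR-675, and Igf2 is the paternally expressed insulin-like growth factor that myoblasts secrete. H19 (ENSMUSG00000000031, minus strand of chromosome 7 at 142575529 to 142578143, mm10) had 140697, 136767 and 146834 counts in Prr33-gRNA, against 212863, 186687 and 179966 counts in Ctrl-gRNA. It took 0.754% to 0.785% of all counts in Prr33-gRNA and 1.04% to 1.11% in Ctrl-gRNA. Every Prr33-gRNA library was below every Ctrl-gRNA library, with a log2 fold change of -0.57 (SE 0.04, edgeR adjusted p = 1.09e-14).

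Igf2os, a noncoding RNA transcribed opposite to Igf2, fell furthest of the imprinted genes. Its counts were 10, 7 and 23 in Prr33-gRNA and 170, 171 and 158 in Ctrl-gRNA (log2 fold change -3.76, SE 0.25, edgeR adjusted p = 1.12e-14). Replicate 3 held 23 of its 40 Prr33-gRNA reads, and without that library the log2 fold change was -4.35. The log2 ratio of Igf2os over H19 was -13.71, -14.15 and -12.61 in Prr33-gRNA and -10.29, -10.09 and -10.15 in Ctrl-gRNA, without overlap (exact permutation p = 0.1, the smallest possible; adjusted p = 0.133 over 8 ratios).

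Igf2 itself had too few reads for a comparison. It was listed at 0, 2 and 0 counts in Prr33-gRNA and 5, 3 and 4 counts in Ctrl-gRNA, too few to be tested. Of its 5723 exonic bases in GENCODE M21, 3596 also belong to the readthrough gene Gm49394 on the same strand and 98 to Igf2os, so 35.5% belong to Igf2 alone. All 4738 exonic bases of Gm49394 lie in exons of Igf2 or Igf2os, and Gm49394 had 0 counts over the Prr33-gRNA libraries and 8 over the Ctrl-gRNA libraries. How reads in shared exons were counted is not stated. Snurf, whose 216 bases all lie in Snrpn exons, and Mir675, whose 84 bases all lie in H19 exons, were at 0 counts. Whether reads in shared exons were left out was not tested, so the low counts do not show that Igf2 RNA was scarce. Igf2os shares 1142 of its 5337 exonic bases with Gm49394 on the other strand, so its value is uncertain too: with no strand setting stated, reads of Igf2os and of transcripts on the other strand cannot be told apart. Next to Igf2 in the same domain, Ins2 fell with 44, 42 and 33 counts in Prr33-gRNA and 104, 86 and 88 counts in Ctrl-gRNA (log2 fold change -1.34, SE 0.22, edgeR adjusted p = 2.83e-06). The noncoding gene Gm33148 between H19 and Igf2 did not pass (log2 fold change 0.08, edgeR adjusted p = 0.794).

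**Figure D3:**
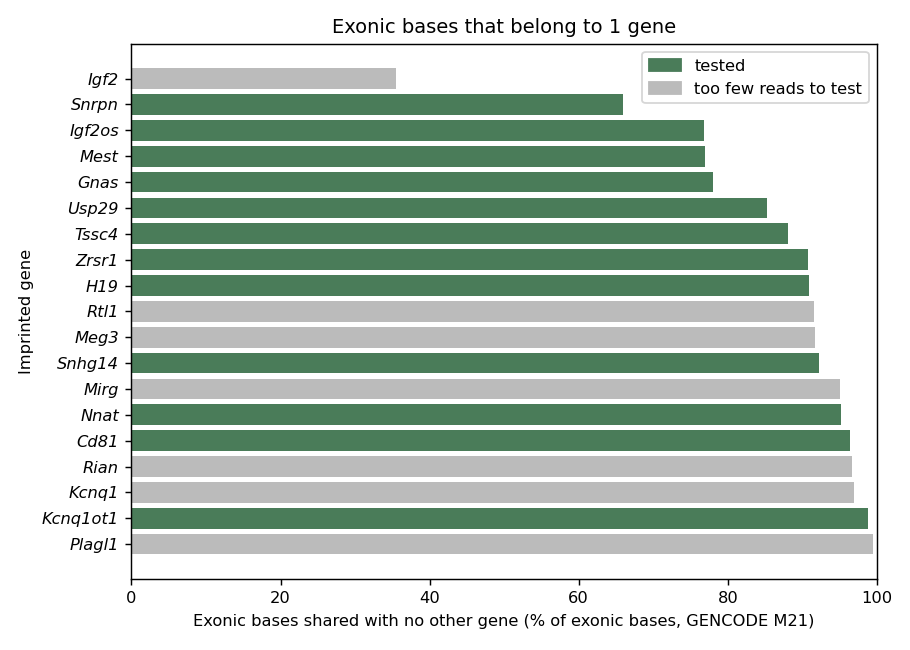
Share of exonic bases (GENCODE M21, horizontal axis in percent) that belong to the named gene and to no other gene on either strand, for the 19 of 33 imprinted genes that share any; green bars are tested genes and grey bars genes with too few reads to test. Igf2 has the lowest share, at 35.5%, followed by Snrpn, Igf2os, Mest and Gnas.

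The Kcnq1ot1 cluster begins further along the same chromosome, with Cd81 546 kb and Kcnq1ot1 697 kb from Prr33. Kcnq1ot1 is the paternally expressed antisense RNA that silences this domain. Its inner targets Kcnq1, Cdkn1c, Slc22a18 and Phlda2 are expressed from the maternal copy. So is Ascl2 in placenta, which lies on the far side of Cd81 from Kcnq1ot1. Phlda2 and Ascl2 had 0 counts in all 6 libraries, and Slc22a18 had 1 count in each group. Kcnq1, a potassium channel gene, had 4, 1 and 6 counts in Prr33-gRNA and 2, 0 and 0 counts in Ctrl-gRNA, while Cdkn1c, the cell cycle inhibitor p57, had 21, 17 and 24 counts in Prr33-gRNA and 29, 18 and 11 counts in Ctrl-gRNA (log2 fold change -0.02, edgeR adjusted p = 0.966). Apart from Cdkn1c, at 1.09 ± 0.14 CPM in Prr33-gRNA and 1.11 ± 0.46 CPM in Ctrl-gRNA (SD, n = 3 each), these inner targets were thus at or near 0 in both groups. Of the 2039 exonic bases of Cdkn1c, 625 are shared with Gm44732 on the other strand.

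Kcnq1ot1 had 222, 174 and 221 counts in Prr33-gRNA and 279, 199 and 242 counts in Ctrl-gRNA, spread over a gene of 93092 bases (log2 fold change -0.34, SE 0.12, edgeR adjusted p = 0.0183). The CPM of its groups overlapped, and the call was lost without Prr33-gRNA replicate 2 (edgeR adjusted p = 0.0948) and likewise if Ctrl-gRNA replicate 1 (0.114) or replicate 3 (0.0610) was left out. Cd81, a tetraspanin gene at the outer edge of the domain, fell with 448, 441 and 409 CPM in Prr33-gRNA and 597, 572 and 552 CPM in Ctrl-gRNA (log2 fold change -0.41, SE 0.04, edgeR adjusted p = 8.80e-10). The log2 ratio of Kcnq1ot1 over Cd81 averaged -5.31 ± 0.18 in Prr33-gRNA and -5.37 ± 0.16 in Ctrl-gRNA, and the groups overlapped (SD, n = 3 each; exact permutation p = 0.5). The smallest p of this test is 0.1, so it could not decide whether the falls were unequal. Tssc4, beside Cd81, had 52.7, 51.2 and 43.6 CPM in Prr33-gRNA and 55.7, 55.6 and 47.1 CPM in Ctrl-gRNA and did not pass (log2 fold change -0.11, SE 0.07, edgeR adjusted p = 0.252).

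The other genes of the outer domain did not share 1 direction. Tspan32, a tetraspanin gene, fell with 79, 52 and 52 counts in Prr33-gRNA and 198, 203 and 208 counts in Ctrl-gRNA (log2 fold change -1.86, SE 0.17, edgeR adjusted p = 3.11e-11). Nap1l4, for a histone chaperone, and Tnfrsf22, for a decoy receptor, rose slightly (log2 fold changes of 0.11 and 0.28, edgeR adjusted p = 0.0390 and 1.41e-04). Dhcr7, the last step of cholesterol synthesis, fell (-0.22, edgeR adjusted p = 2.43e-04), and Osbpl5, Tnfrsf23 and Trpm5 did not pass (0.03, 0.07 and -0.07). Cars and Nadsyn1, which are in neither list of imprinted genes, also fell (log2 fold changes of -0.34 and -0.46, edgeR adjusted p = 1.67e-06 and 0.00105). From Tspan32 to Dhcr7, 15 of 40 listed genes were tested. Of these 6 fell, Cd81 and Kcnq1ot1 among them, and 2 rose, where 26.6% of all tested genes fell and 25.5% rose. From Prr33 to Dhcr7, 23 of 60 listed genes were tested, of which 12 fell and 2 rose (11 and 5 with library size only), where 26.6% of all tested genes fell and 25.5% rose. The 12 falls include Prr33 itself and, on the near side of H19, Tnnt3 and Nctc1 (log2 fold changes of -0.42, -0.70 and -0.84).

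**Figure D4:**
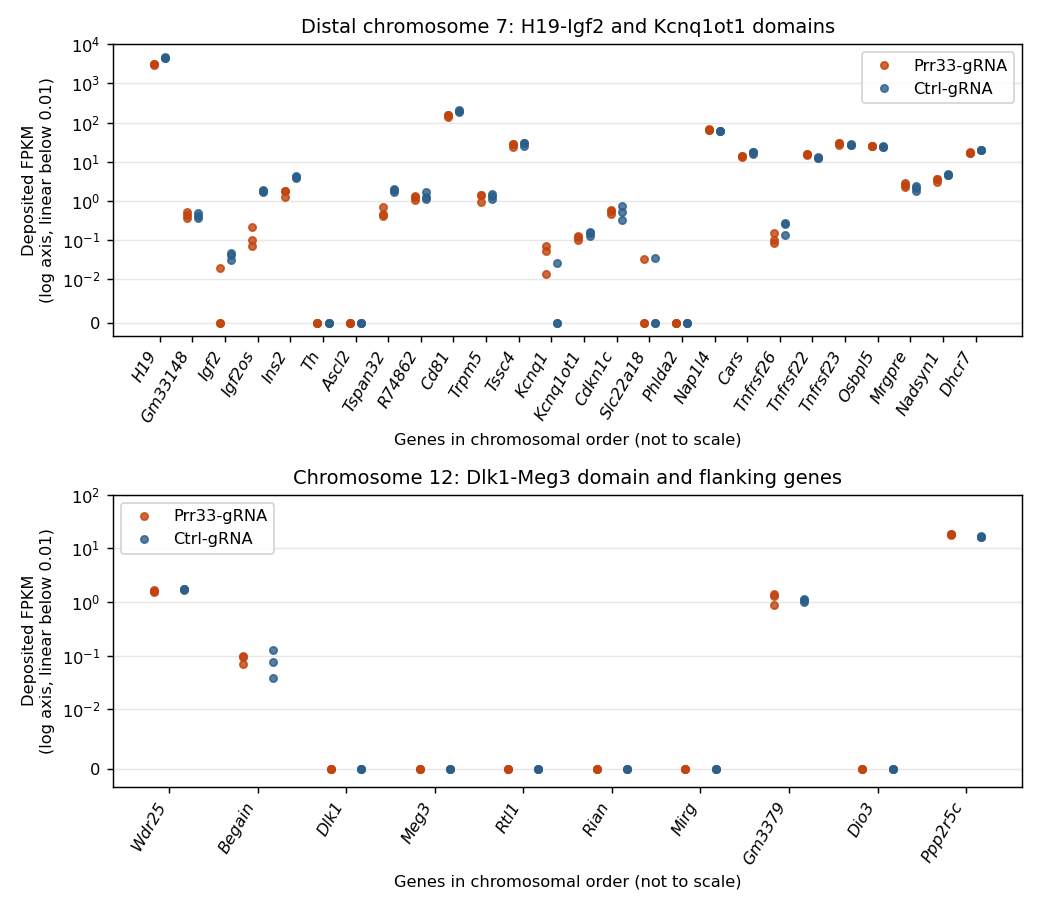
Deposited FPKM (log axis, linear below 0.01) of each library for genes in chromosomal order, Prr33-gRNA in orange left of Ctrl-gRNA in blue; the upper panel shows the H19-Igf2 and Kcnq1ot1 domains of chromosome 7 and the lower panel the Dlk1-Meg3 domain of chromosome 12, with the imprinted genes and those with over 30 counts in all. Dlk1, Meg3, Rtl1, Rian, Mirg and Dio3 sit at 0 in all libraries, between Begain and Ppp2r5c, which have reads, as does the pseudogene Gm3379 beside Dio3.

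The Dlk1-Meg3 cluster was without reads in both groups. Dlk1 encodes a Notch-ligand-like membrane protein made in fetal muscle, Rtl1 a retrotransposon-derived protein, and Meg3, Rian and Mirg are maternally expressed noncoding RNAs that host small RNAs; all 5 had 0 counts in each of the 6 libraries. A count of 0 allows up to 3 counts, or 0.150 to 0.166 CPM in the Prr33-gRNA libraries and 0.162 to 0.182 CPM in the Ctrl-gRNA libraries (counting error only). Between the start of Dlk1 and the end of Mirg (chromosome 12, 109452823 to 109749460) the table lists 102 genes, and 0 of them had a read. Up to Dio3, which was also at 0, 5 of 116 listed genes had any read, and the pseudogene Gm3379 held most of these. The blank ended on both sides: Begain had 6, 8 and 9 counts in Prr33-gRNA and 11, 3 and 6 counts in Ctrl-gRNA, Wdr25 had 142, 147 and 149 counts in Prr33-gRNA and 151, 138 and 144 counts in Ctrl-gRNA, and Ppp2r5c had 2797, 2689 and 3031 counts in Prr33-gRNA and 2531, 2245 and 2384 counts in Ctrl-gRNA. Of the exonic bases of these 5 genes, 91.6% to 100.0% are theirs alone. Plagl1, a zinc finger gene of another cluster, was likewise at 0 in all libraries.

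In the Peg3 cluster the paternally expressed Peg3 and Usp29 fell slightly. Peg3, for a zinc finger protein linked to growth and nurturing behaviour, had 759, 731 and 793 CPM in Prr33-gRNA and 873, 908 and 881 CPM in Ctrl-gRNA (log2 fold change -0.22, SE 0.04, edgeR adjusted p = 2.30e-05). Usp29, for a deubiquitinase, had 138, 159 and 184 counts in Prr33-gRNA and 198, 185 and 181 counts in Ctrl-gRNA (log2 fold change -0.36, SE 0.13, edgeR adjusted p = 0.0221). Its call was lost without Prr33-gRNA replicate 1 (edgeR adjusted p = 0.126) and without Ctrl-gRNA replicate 2 (0.0770). Zim1, the maternally expressed zinc finger gene next to Peg3, had 54.7, 46.0 and 50.5 CPM in Prr33-gRNA and 50.5, 53.9 and 48.1 CPM in Ctrl-gRNA (log2 fold change -0.01, SE 0.07, edgeR adjusted p = 0.909).

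The log2 ratio of Zim1 over Peg3 was -3.79, -3.99 and -3.97 in Prr33-gRNA and -4.11, -4.07 and -4.20 in Ctrl-gRNA, without overlap (exact permutation p = 0.1, the smallest possible; adjusted p = 0.133 over 8 ratios). That of Usp29 over Peg3 was -6.65, -6.37 and -6.43 in Prr33-gRNA and -6.35, -6.33 and -6.35 in Ctrl-gRNA (the same exact permutation p = 0.1), and its mean difference of -0.14 was -0.06 without Prr33-gRNA replicate 1. Zim2, Zim3 and Zfp264 of the same cluster were at 0 in all libraries. Zim3 shares 2582 of the 18078 exonic bases of Usp29 on the other strand.

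Peg3 and Usp29 are read in opposite directions from starts 164 bases apart, and 263 bases of their 300-base windows are common to both. The Peg3 window is shown because both genes fell (chr7:6730370-6730669, GRCm38.p6, minus strand, start at base 6730419, CG in capitals).
Peg3 promoter: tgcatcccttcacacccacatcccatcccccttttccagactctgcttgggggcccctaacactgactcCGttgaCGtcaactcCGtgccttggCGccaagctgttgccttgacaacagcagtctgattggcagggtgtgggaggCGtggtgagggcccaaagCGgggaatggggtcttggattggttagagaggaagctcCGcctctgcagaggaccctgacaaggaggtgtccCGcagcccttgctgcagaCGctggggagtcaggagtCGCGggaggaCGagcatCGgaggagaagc
It holds 13 CG dinucleotides, more than 62.1% of all windows, and the Usp29 window holds 17; TGCCGC was found in neither, in either orientation. Among the 27 imprinted genes with a RefSeq promoter, the 41 windows held a median of 11 CG, where the median over all windows was 7. The 24 windows of tested genes held a median of 16.5 CG and the 17 of untested genes 10. Windows of all genes were not split in this way, so whether this difference is particular to imprinted genes was not tested. TGCCGC or its reverse complement was found in 9 of the 41 windows, overlapping Mest windows among them, and in 11.6% of all RefSeq windows. Some windows overlap, and the same window is listed for Snrpn and for Snhg14. The windows are thus not independent, and none of these contrasts was tested.

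In the Igf2r cluster both genes fell. Igf2r, the maternally expressed receptor that carries IGF2 to lysosomes for breakdown, had 322, 306 and 311 CPM in Prr33-gRNA and 351, 350 and 338 CPM in Ctrl-gRNA (log2 fold change -0.15, SE 0.04, edgeR adjusted p = 0.00370). Airn, the paternally expressed antisense RNA that silences Igf2r on its own chromosome, had 221, 225 and 234 counts in Prr33-gRNA and 311, 254 and 285 counts in Ctrl-gRNA (log2 fold change -0.44, SE 0.11, edgeR adjusted p = 7.67e-04). The groups overlapped for neither gene, but the call for Igf2r was lost with scaling by library size only (log2 fold change -0.06, edgeR adjusted p = 0.244). The log2 ratio of Airn over Igf2r, which does not depend on scaling, was -4.74, -4.61 and -4.73 in Prr33-gRNA and -4.38, -4.50 and -4.31 in Ctrl-gRNA (exact permutation p = 0.1, the smallest possible; adjusted p = 0.133 over 8 ratios).

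Airn starts inside Igf2r on the other strand, and none of its 3597 exonic bases in GENCODE M21 lie in Igf2r exons, though the count table used a longer Airn of 4623 bases; without a strand setting, unspliced RNA of one cannot be told apart from the other where they overlap. The placentally imprinted neighbours Slc22a2 and Slc22a3 were at 0 in all libraries. Beyond Airn, Tcp1 and Acat2, which are not in either list of imprinted genes, rose (log2 fold changes of 0.25 and 0.41, edgeR adjusted p = 8.39e-06 and 7.87e-08).

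H19 and Igf2r, both maternally expressed, both fell. The log2 ratio of H19 over Igf2r was 4.57, 4.63 and 4.56 in Prr33-gRNA and 5.03, 5.01 and 4.99 in Ctrl-gRNA, a mean difference of -0.43 with no overlap (exact permutation p = 0.1, the smallest possible; adjusted p = 0.133 over 8 ratios).

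**Figure D5:**
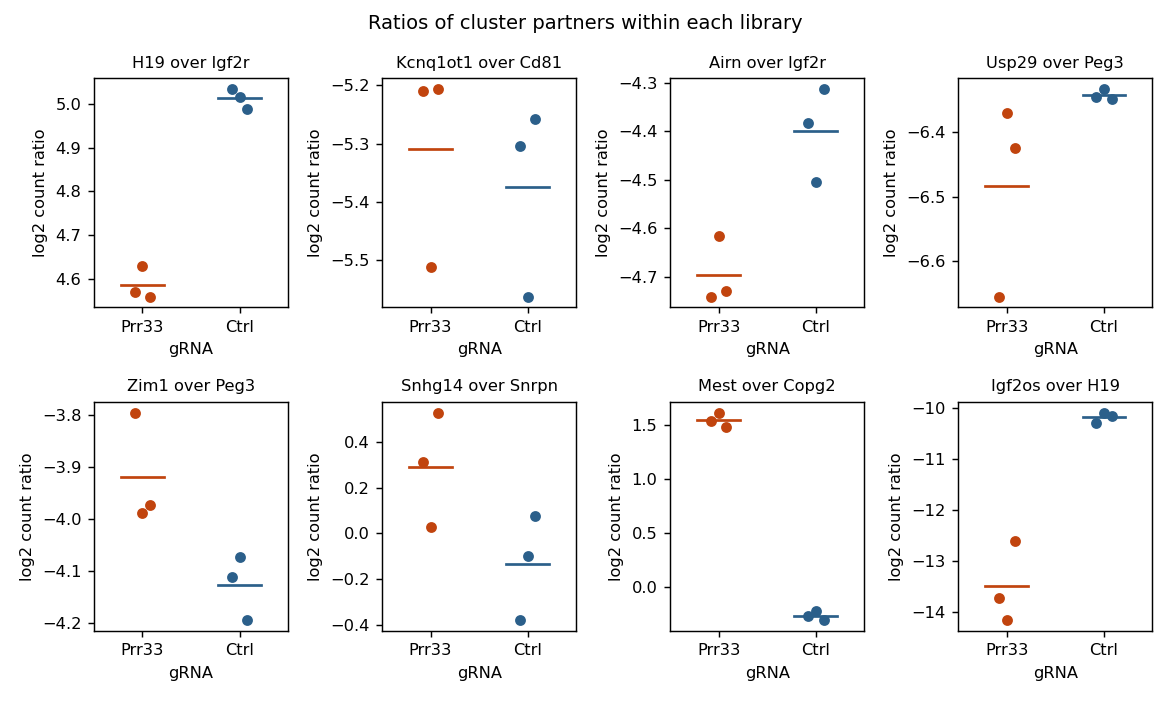
Log2 ratio of the counts of paired genes in each library (each panel has its own vertical axis, in log2 units), Prr33-gRNA in orange left of Ctrl-gRNA in blue, with lines at the means. The genes of a pair share a cluster, except H19 and Igf2r, which lie on chromosomes 7 and 17. The groups do not overlap in 6 of 8 panels, while Kcnq1ot1 over Cd81 and Snhg14 over Snrpn overlap. Only H19 over Igf2r and Kcnq1ot1 over Cd81 were planned. The other 6 ratios were chosen after the values were seen, so the number of panels without overlap is no evidence in itself.

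Among the imprinted genes that stand apart from these clusters, Gnas fell. Gnas, for the stimulatory G protein alpha subunit, had 85.4, 110 and 89.4 CPM in Prr33-gRNA and 159, 141 and 131 CPM in Ctrl-gRNA (log2 fold change -0.59, SE 0.13, edgeR adjusted p = 0.0114). The groups did not overlap, but the spread within each was wide, and without Prr33-gRNA replicate 3 the adjusted p was 0.0542. The locus makes several transcripts of opposite imprinting, of which the one for the G protein subunit itself is expressed from both copies in most tissues, and a count per gene does not separate them; 78.0% of its exonic bases belong to it alone.

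Zrsr1, Grb10 and Nnat did not pass the test. Zrsr1, a retrogene for a splicing factor of the U2AF family, had 126, 129 and 108 counts in Prr33-gRNA and 140, 136 and 122 counts in Ctrl-gRNA (log2 fold change -0.25, SE 0.16, edgeR adjusted p = 0.179); it lies within Commd1 on the other strand, and Commd1 rose (log2 fold change 0.32, SE 0.12, edgeR adjusted p = 0.0201). Grb10, an adaptor that damps insulin and IGF receptor signals, had 34, 15 and 26 counts in Prr33-gRNA and 29, 30 and 27 counts in Ctrl-gRNA (log2 fold change -0.32, SE 0.33). Nnat, for the membrane proteolipid neuronatin, had 25, 17 and 12 counts in Prr33-gRNA and 21, 17 and 16 counts in Ctrl-gRNA (log2 fold change -0.12, SE 0.38). At these counts the SE of Grb10 and Nnat leaves changes of moderate size undetectable. Blcap, which holds Nnat in its intron, did not pass either (log2 fold change 0.02, SE 0.07, edgeR adjusted p = 0.838), and near Grb10 the gene Ddc fell (log2 fold change -0.92, SE 0.12, edgeR adjusted p = 7.88e-08) while Cobl did not pass (-0.07, edgeR adjusted p = 0.266).

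A wider list of 58 other genes reported as imprinted in mouse had 57 in the table and 36 tested, of which 10 fell and 13 rose, where 26.6% of all tested genes fell and 25.5% rose. With scaling by library size only 7 fell and 19 rose, so the split rests on the scaling. Their median was 0.05 on the log2 fold change scale. Past a log2 fold change of 1 were the rises of Zdbf2 and Nap1l5 and the falls of Dcn, Tspan32 and Ins2. Zdbf2, a zinc finger gene, had 70, 60 and 77 counts in Prr33-gRNA and 36, 25 and 17 counts in Ctrl-gRNA (log2 fold change 1.28, SE 0.26, edgeR adjusted p = 9.52e-05). Nap1l5, a retrogene in an intron of Herc3, had 12, 19 and 17 counts in Prr33-gRNA and 10, 3 and 5 counts in Ctrl-gRNA (log2 fold change 1.28, SE 0.49, edgeR adjusted p = 0.0275). Herc3, on the other strand, rose as well, with 1289, 1245 and 1336 counts in Prr33-gRNA and 656, 556 and 571 counts in Ctrl-gRNA (log2 fold change 0.99, SE 0.06, edgeR adjusted p = 1.72e-15), and reads of the pair cannot be told apart without the strand setting. Dcn, the matrix proteoglycan decorin, had 54, 56 and 59 counts in Prr33-gRNA and 234, 228 and 250 counts in Ctrl-gRNA (log2 fold change -2.20, SE 0.15, edgeR adjusted p = 1.92e-14). It is also made by fibroblasts. Of the 10 fibroblast and mesenchymal progenitor markers, 6 fell in the same libraries and 4 had too few reads to test. The part of such cells in the value of Dcn was not tested.

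Of 13 factors that maintain imprints, 7 rose and 2 fell, where 25.5% of all tested genes rose and 26.6% fell; with library size only 9 rose and 1 fell. Hells, a chromatin remodeller needed for DNA methylation, rose with 57.0 ± 3.63 CPM in Prr33-gRNA and 32.2 ± 1.84 CPM in Ctrl-gRNA (SD, n = 3 each; log2 fold change 0.83, SE 0.07, edgeR adjusted p = 2.80e-12). Zfp57, whose protein protects methylated imprinting control regions, fell with 22.7 ± 1.02 CPM in Prr33-gRNA and 38.2 ± 1.54 CPM in Ctrl-gRNA (SD, n = 3 each; log2 fold change -0.75, SE 0.08, edgeR adjusted p = 4.21e-10). Smchd1, Dnmt1, Atrx, Zfp445, Trim28 and Uhrf1 rose by less (log2 fold changes of 0.48, 0.32, 0.26, 0.21, 0.18 and 0.15), Ehmt2 fell (-0.18), and Ctcf, which insulates H19 from Igf2, did not pass (0.09, edgeR adjusted p = 0.190). Hells, Dnmt1 and Uhrf1 are also expressed with DNA replication, and the proliferation genes rose in the same libraries; their part in these values was not tested.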

How the data were processed

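Counts per gene were deposited by the authors as whole, unscaled reads. CASAVA, HISAT2 2.0.5, featureCounts 1.5.0-p3 and the build mm10 are named in the submitters' processing notes. Strand setting, annotation release and the handling of reads in shared exons are not given in the sources used here. FPKM values deposited by the authors equal the counts over gene length and 1 constant per library, which was 1.03 to 1.04 of the total in Prr33-gRNA and 0.973 to 0.978 in Ctrl-gRNA, so they do not check the scaling independently. No library was treated as a duplicate: the chi-square per gene between libraries of a group was 2.87 to 5.62.

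Counts were tested with edgeR 4.0.16 in R 4.3.3 (filterByExpr, TMM, robust quasi-likelihood F test), fitted on the whole table, with Benjamini-Hochberg adjustment over 14651 genes and a threshold of 0.05. CPM use TMM-scaled library sizes, and an SE is the absolute log2 fold change over the square root of F. The script was tested on simulated data. Ratios within a library added 0.5 to each count; H19 over Igf2r and Kcnq1ot1 over Cd81 were planned, the other 6 were chosen after the values were seen. Exonic overlap was taken from GENCODE M21, where 32 of the 33 genes had the same start and end but the exonic length of Airn, Rian, Peg3 and Gnas differed from that in the count table. Alternatives were RLE factors, library size alone, DESeq2 1.42.0, limma-voom (limma 3.58.1), 2 filters, the replicate number as a block, limma on log2 FPKM with a pseudocount of 1 or 0.1, omission of single libraries, stricter thresholds, and leaving out overlapping genes.

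The genes named were all members, fixed lists of other imprinted genes, imprint maintenance factors and cell type markers, and genes that overlap or adjoin a member. Herc3, Wdr25, Ppp2r5c, Gm3379, Gm33148, Cep41, Tcp1, Acat2, Cars, Nadsyn1 and Nctc1 were added after their values were seen. The members and lists were chosen with earlier results of these data known. Deviations from the group means correlated at -0.02, 0.00 and 0.06 between same-numbered libraries, which were therefore taken as unpaired. Promoter windows are from RefSeq (GRCm38.p6). Figures used matplotlib 3.10.9.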

Additional observations from a re-analysis of the deposited data

How the results depend on the processing

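None of the 19 tested imprinted genes changed sign past the threshold under any alternative: of 303 values, 287 kept their side of the threshold and 16 lost it. Those 16 belong to Kcnq1ot1, Usp29, Gnas and Igf2r. With library size alone, Igf2r, Usp29 and Kcnq1ot1 lost their calls (log2 fold changes of -0.06, -0.27 and -0.26), which left 6 falls; on the FPKM scales Usp29 and Kcnq1ot1 did (7 falls). Leaving out single libraries gave 5 rises and 8 falls among the members, 11 to 13 rises and 8 to 10 falls among the other imprinted genes, and 3316 to 3709 rises and 3484 to 3884 falls over all genes. A log2 fold change of at least 1, which drops smaller changes by construction, left 1 rise and 1 fall among the members, 2 and 3 among the other imprinted genes, and 427 and 1166 over all genes. Of the 9 members whose span overlaps no other gene, 4 were tested; Peg10 rose and Peg3 fell, which makes 1 rise and 1 fall. With a replicate block 5 members rose and 9 fell, and over all genes 3811 rose and 3975 fell, sharing 3713 and 3873 with the fit without it. Library size alone moved the split over all genes to 4999 rises and 3103 falls, that over the other imprinted genes to 19 and 7, and the median by 0.09. The values of Zim1 and Nnat, not called, took both signs (-0.07 to 0.08 and -0.44 to 0.15), and that of Igf2os was -1.31 on log2(FPKM + 1), which understates changes of low genes. The difference of the ratio Usp29 over Peg3 was -0.14, and -0.06 without Prr33-gRNA replicate 1; that of Kcnq1ot1 over Cd81 turned to -0.03 without Ctrl-gRNA replicate 2. The ratios Rian over Meg3 and Mirg over Meg3 were not run, since all 3 genes had 0 reads, nor was Slc22a18 over Phlda2. Depth limits Grb10, Nnat, Cdkn1c and the genes below the test's filter. Single libraries were not tested as outliers in groups of 3.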
